A study of Mus musculus with 23 samples.

Results

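The S100 genes code for small calcium-binding proteins, and 8 of them were followed across all libraries of a single-cell RNA-seq study of mouse bone marrow-derived mesenchymal stem cells (mMSCs). S100a1, S100a4, S100a6, S100a10, S100a11, S100a13, S100a16 and S100b were taken by their gene symbols from the 23284 genes measured. The study sequenced 16 single mMSCs (mMSC1 to mMSC16) and 5 single HL-1 cardiomyocytes (HL1cm1 to HL1cm5), with 1 bulk population control of each, mMSC-PC and HL1cm-PC. The mMSCs were purchased, came from 3 month-old male mice, were of strain C57BL/6J and had been passaged 6 to 11 times. HL-1 is a continuous line of mouse atrial cardiomyocytes, also labelled C57BL/6J here, which served as the control cell type at passages 70 to 85. The 2 cell types grew in different media, and only the HL1cm medium contained norepinephrine. Both were captured together in 1 microfluidic device, whose chip took cells 17 to 25 micron wide, the HL1cm carrying a green cytoplasmic dye that told them from the mMSCs. No source names separate cultures, so each cell type was treated as 1 sample. Differences are therefore given as sizes with the spread between cells, and no test was made between the cell types.

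S100 proteins carry a pair of EF-hand loops and mostly act as dimers. Binding of calcium opens a surface through which the dimer grips a target, such as an annexin, a myosin heavy chain or a calcium pump, and some members are also released and act outside the cell. Most S100 genes sit side by side in a cluster that is shared between mammals, yet individual members differ widely in the cells that use them: S100A1 is the form of striated muscle, S100B is known from glia, and S100A4, S100A6, S100A10 and S100A11 are abundant in fibroblasts and other mesenchymal cells.

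In the mouse genome (GRCm38, the assembly of mm10, with GENCODE M21 gene models), 7 of the 8 genes lie on chromosome 3 and S100b lies on chromosome 10. S100a1 (chr3:90511034-90514392, minus strand) and S100a13 (chr3:90514435-90524581, plus strand) stand back to back with 42 bases between their models. S100a16 (chr3:90537254-90543151), S100a4 (chr3:90603771-90606045) and S100a6 (chr3:90612882-90624181) follow on the plus strand within 113 kb of the start of S100a1. S100a11 (chr3:93520488-93526287) and S100a10 (chr3:93555080-93564643) form a second group on the plus strand, 2896 kb further on and 28.8 kb from each other. S100b is at chr10:76253853-76261159 on the plus strand.

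Promoter windows of RefSeq (GRCm38.p6), from 250 bases before to 50 bases after a start site, were found for 7 of the 8 members. The windows of 5 members are shown because they cover the back-to-back pair, which was measured in both cell types, and the 3 genes with windows that were highest in mMSCs. Each is written 5′ to 3′ on the strand of its gene, with matches to 5 searched motifs in capitals. The windows are chr3:90514281-90514580 for S100a1, chr3:90514185-90514484 for S100a13, chr3:90603520-90603819 for S100a4, chr3:90612644-90612943 for S100a6 and chr3:93520246-93520545 for S100a11.
S100a1: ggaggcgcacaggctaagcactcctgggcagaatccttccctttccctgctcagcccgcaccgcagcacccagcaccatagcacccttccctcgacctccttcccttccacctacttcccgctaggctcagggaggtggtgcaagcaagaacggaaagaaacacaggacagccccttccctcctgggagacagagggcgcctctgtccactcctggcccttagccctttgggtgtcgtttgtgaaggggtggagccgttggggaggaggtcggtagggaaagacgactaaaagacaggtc
S100a13: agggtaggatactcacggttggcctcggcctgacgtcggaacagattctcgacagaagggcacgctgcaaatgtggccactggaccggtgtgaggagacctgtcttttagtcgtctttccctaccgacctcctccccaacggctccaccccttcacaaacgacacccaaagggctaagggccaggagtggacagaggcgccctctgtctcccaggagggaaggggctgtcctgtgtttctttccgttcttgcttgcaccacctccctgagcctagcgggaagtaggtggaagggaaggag
S100a4: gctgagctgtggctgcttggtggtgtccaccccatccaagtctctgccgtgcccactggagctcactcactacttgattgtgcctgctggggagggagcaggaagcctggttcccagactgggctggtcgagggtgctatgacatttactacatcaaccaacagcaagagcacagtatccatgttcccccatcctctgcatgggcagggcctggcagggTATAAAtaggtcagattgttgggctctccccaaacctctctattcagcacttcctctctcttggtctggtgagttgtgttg
S100a6: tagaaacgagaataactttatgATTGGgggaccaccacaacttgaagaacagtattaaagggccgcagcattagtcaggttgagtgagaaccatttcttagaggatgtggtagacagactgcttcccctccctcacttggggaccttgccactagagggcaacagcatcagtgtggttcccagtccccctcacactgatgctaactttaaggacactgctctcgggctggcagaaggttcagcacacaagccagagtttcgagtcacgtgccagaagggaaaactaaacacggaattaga
S100a11: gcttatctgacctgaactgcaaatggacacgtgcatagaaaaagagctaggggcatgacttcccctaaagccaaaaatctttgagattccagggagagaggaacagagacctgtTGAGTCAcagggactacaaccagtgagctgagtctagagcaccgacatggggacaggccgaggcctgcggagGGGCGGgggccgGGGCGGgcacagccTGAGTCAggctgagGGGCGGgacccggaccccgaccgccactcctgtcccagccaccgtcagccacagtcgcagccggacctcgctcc
Exact letters were searched on both strands. The TATA box was searched as TATAAA. An AP-1 site was any match to TGANTCA. The motif named after its letters was CCAAT. A GC box was the hexamer GGGCGG. The M-CAT motif, known from cardiac genes, was searched as CATTCC. No match overlapped another in these windows. Of 32851 mouse promoter windows, 13.6% held the TATA box, 7.81% an AP-1 site, 37.4% the CCAAT motif, 35.7% a GC box and 14.7% the M-CAT motif. The S100a4 window held the TATA box from base -31 relative to the start site, and the S100a6 window held the CCAAT motif on the reverse strand from base -228. The S100a11 window held AP-1 sites at bases -136 and -38 and GC boxes at bases -64, -52 and -24, and its GC content was 61.7% against a median of 52.7% over all windows. None of the 5 motifs was found in the S100a1 or S100a13 windows, which share 204 bases of genome, their start sites being 105 bases apart. One of the 2 windows of S100a16 held an AP-1 site at base -192 and a GC box at base -30, and the S100b window held the CCAAT motif at bases -202 and -20. The M-CAT motif was in no window of a member. A match describes letters only, and no binding was measured.

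The values are FPKM, the number of sequenced fragments divided by exon length and by the size of the library. Levels of different genes were set side by side on this scale, and a bias by transcript length was not examined. Each mMSC library listed 5178 to 7241 genes with at least 1 FPKM, and each HL1cm library 6428 to 7010. The 2 mMSC libraries with the fewest genes were mMSC9 with 5178 and mMSC15 with 5837. The table holds no read counts, so the depth behind a value is unknown and intervals on shares of cells cover counting error only. A listed 0 can be a failed estimate: 8 genes were at 0 in 1 library and at 100 FPKM or more in all others of its cell type, among them Canx, an endoplasmic reticulum chaperone, at 0 in mMSC12 and at least 456 in the other mMSCs (these genes were chosen after their values were seen). Defining markers were found in both cell types, with exceptions. For 4 of 8 mesenchymal markers every mMSC lay above every HL1cm, beside 2.19% of the genes compared. For 8 of 9 cardiomyocyte markers every HL1cm lay above every mMSC, beside 1.77%. Ly6a was at 167 to 3900 FPKM in mMSCs and 0 in HL1cm, while Thy1 was listed at 0 in every library. Vim and Sparc were also high in HL1cm, at 555 to 1005 and 161 to 833 FPKM, and overlapped the mMSCs. Myl7, the atrial myosin light chain, was at 20292 to 46701 FPKM in HL1cm and at most 65.4 in mMSCs, while Nppa, the atrial natriuretic peptide, was above 0 in 2 of the 5 HL1cm. Of 6 leukocyte markers Ptprc and Tyrobp were at 0 in all cells, with a summed level of 0 to 48 FPKM in mMSCs and 0 to 1 in HL1cm. On the same list Csf1r was above 0 in 8 mMSCs, up to 32.6 FPKM, and in no HL1cm, and Cd68 was at 48.1 FPKM in 1 mMSC. Their part in the S100 values was not tested. Of 5 endothelial markers Cdh5 and Tek were at 0 in all cells and the sum was at most 11 and 14 FPKM, and all 5 neural and glial markers were at 0 in every single cell. All 12 genes of the G2/M list were at least 2-fold lower in mMSCs than in HL1cm, beside 21.6% of the genes compared.

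S100a6, S100a11, S100a10 and S100a4 separated the 2 cell types without overlap, S100a16 nearly so, and S100a1 was the member that was higher in HL1cm. A difference of means of log2 FPKM (values under 1 FPKM set to 1) of at least 1 was taken as 2-fold. All 8 members passed the filter of at least 1 FPKM in 2 or more of the 21 single cells, as did 11850 genes in all. Of the members, 5 were at least 2-fold higher in mMSCs (S100a4, S100a6, S100a10, S100a11 and S100a16), beside 21.4% of all genes of the filter. Just 1, S100a1, was at least 2-fold lower in mMSCs, beside 21.6% of all genes. For 4 members, S100a4, S100a6, S100a10 and S100a11, every mMSC lay above every HL1cm, which was so for 2.19% of all genes. The opposite, every HL1cm above every mMSC, was found for 0 members and 1.77% of all genes. The median difference was 7.06 on the log2 scale over the 8 members and 0.08 over all genes of the filter, a size that depends on the value of 1 FPKM given to cells at 0.

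**Figure D1:**
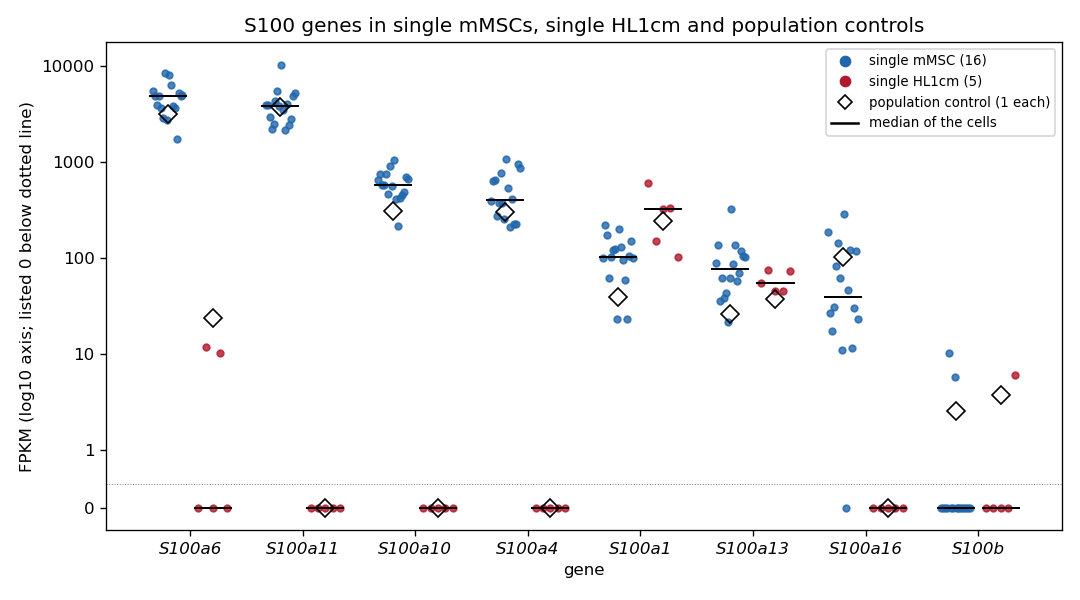
FPKM on a log10 axis of the 8 S100 genes in 16 single mMSCs (blue), 5 single HL1cm (red) and the population controls (diamonds); the bar is the median of the cells and values listed at 0 are below the dotted line. S100a6, S100a11, S100a10 and S100a4 lie at 213 FPKM or more in every mMSC and at 23.7 or less in every HL1cm library, whereas S100a1 and S100a13 were above 0 in all libraries.

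S100a6 and S100a11 were the pair of highest level. S100a6 codes for calcyclin, which binds the ubiquitin ligase adaptors CACYBP and SUGT1. Its level in the 16 mMSCs was lowest in mMSC13 at 1748 FPKM, had a median of 4942 and was highest in mMSC7 at 8478. Among the HL1cm it was 11.9 in HL1cm2, 10.4 in HL1cm4 and listed at 0 in the other 3. The lowest mMSC was thus far above the highest HL1cm. The few positive values in HL1cm were near the bottom of what these libraries resolved: the 5th percentile of the values above 0, over 439 genes with 1 transcript of 500 to 800 bases, was 7.25 FPKM in HL1cm2 and 10.4 in HL1cm4. mMSC-PC held 3174 FPKM and HL1cm-PC 23.7, a 134-fold difference between 2 single libraries. In bulk samples such as these, fewer cells that express a gene and less RNA per cell cannot be told apart.

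S100a11 codes for calgizzarin, a partner of annexin A1 that is linked to membrane repair and growth control. In mMSCs it ran from 2199 FPKM in mMSC11 over a median of 3884 to 10446 in mMSC9, and mMSC-PC was at 3779. It was listed at 0 in all 5 HL1cm, and also in HL1cm-PC, so no fold is given. For the 5 cells this allows a share of up to 52.2% by the exact 95% interval. The rule of 3 divided by the number of cells, which is coarse for 5 cells, gives 60%. By median level over the mMSCs, S100a6 ranked 9 and S100a11 ranked 11 among the 7120 genes with a median above 0. They were the 2 highest S100 genes in 16 of 16 mMSCs, with S100a6 above S100a11 in 10. GENCODE M21 lists a processed pseudogene of S100a11 on chromosome 12, and how reads that match both places were counted is not stated.

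S100a10 codes for p11, a member that has lost calcium binding and forms a stable tetramer with annexin A2. S100a10 was at 216 FPKM in mMSC11, 1063 in mMSC9 and 581 at the median, with 310 in mMSC-PC. It was listed at 0 in all 6 HL1cm libraries. S100a4, also called fibroblast-specific protein 1 or metastasin, binds non-muscle myosin IIA. It was at 213 FPKM in mMSC11, 1078 in mMSC9 and 405 at the median of the mMSCs. mMSC-PC was at 301 FPKM and all 6 HL1cm libraries were listed at 0. S100a10 was above S100a4 in 10 of 16 mMSCs, so these neighbours in the order of levels did not differ beyond the spread between cells. The same held for S100a6 and S100a11, whose ratio ran from 0.678 to 2.2. The GENCODE M21 model Gm42674 overlaps S100a4 on the same strand. The authors used a different mm10 annotation for the FPKM values, and whether it held such a model was not examined.

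Few genes at such levels in mMSCs were listed at 0 throughout the HL1cm libraries. Of the 895 genes with a median of 100 FPKM or more in mMSCs, 40 were listed at 0 in all 6 HL1cm libraries, which is 4.47%. S100a11 had the highest mMSC median of the 40, S100a10 was at rank 7 and S100a4 at rank 10. This count was chosen after the values were seen and is a description.

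S100a16, a broadly expressed member, was lower and more uneven. It was above 0 in 15 of 16 mMSCs (93.8%, exact 95% interval 69.8% to 99.8%), from 11.1 FPKM in mMSC8 to 292 in mMSC9 with a median over all 16 of 39.1. The exception was mMSC10, where it was listed at 0. mMSC-PC held 104 FPKM, more than 11 of the 16 cells. Every HL1cm library was listed at 0 for S100a16, so mMSC10 alone kept it from the members that did not overlap.

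**Figure D2:**
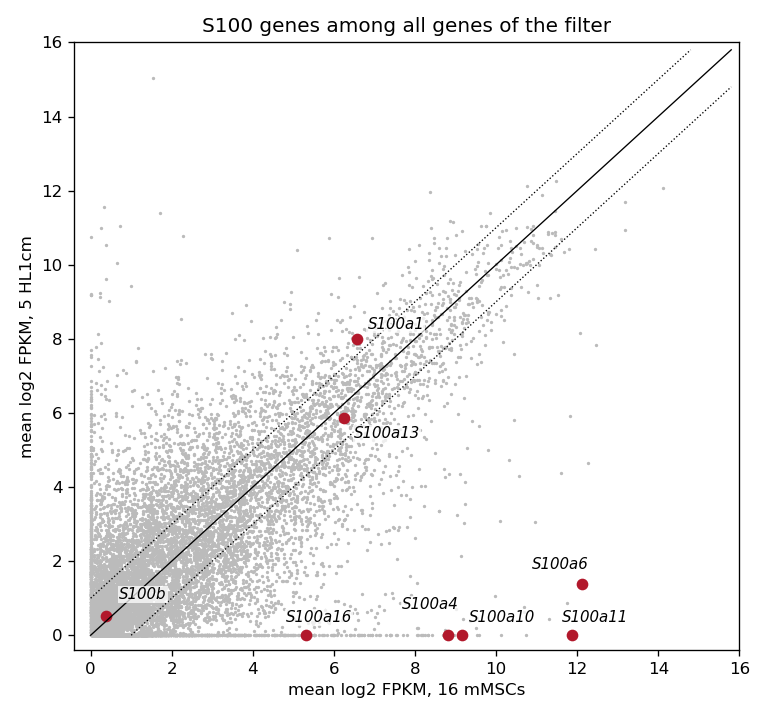
Mean log2 FPKM (values under 1 set to 1) over 5 HL1cm against that over 16 mMSCs for the 11850 genes of the filter (grey), with the 8 S100 genes in red; the solid line is equality and the dotted lines are 2-fold. S100a11, S100a10, S100a4 and S100a16 lie on the lower axis, S100a1 is above the upper dotted line, and S100a13 and S100b are between the dotted lines.

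S100a1 and S100a13, the back-to-back pair, were the S100 genes above 0 in every library of both cell types. S100a1 codes for the striated muscle form, which binds the ryanodine receptor and the calcium pump SERCA2. S100a1 was above 0 in all 16 mMSCs, with a lowest value of 23.3 FPKM in mMSC13, a median of 105 and a highest value of 221 in mMSC2. The 5 HL1cm held 616, 151, 330, 337 and 104 FPKM. HL1cm1, HL1cm3 and HL1cm4 were above every mMSC, while HL1cm2 and HL1cm5 were inside the range of the mMSCs. Mean log2 FPKM was 6.58 in mMSCs (SD 0.95, n = 16 cells) and 7.99 in HL1cm (SD 1.02, n = 5 cells), a difference of -1.41 or 2.66-fold, which was larger than the SD between cells of either type. The controls stood further apart, at 39.2 FPKM in mMSC-PC and 246 in HL1cm-PC, a 6.28-fold difference.

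S100a13, which takes part in the release of FGF1 and interleukin 1 alpha by a route outside the secretory pathway, did not separate the cell types. Its mMSC values ran from 21.7 FPKM in mMSC7 to 325 in mMSC9 with a median of 78.2, and its HL1cm values were 55, 75.1, 45.9, 45.7 and 73.9. The HL1cm lay wholly inside the mMSC range. Mean log2 FPKM was 0.40 higher in mMSCs, less than the SD of 0.94 between mMSCs, and the controls differed in the opposite direction, with 26.5 FPKM in mMSC-PC and 37.4 in HL1cm-PC. S100a1 exceeded S100a13 in 5 of 5 HL1cm but in only 9 of 16 mMSCs. The ratio of S100a1 to S100a13 was 0.332 to 5.73 in mMSCs with a median of 1.07, and 1.41 to 11.2 in HL1cm with a median of 7.19. The 2 ranges overlapped.

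S100b, the glial member, was near 0 throughout. It was at 10.4 FPKM in mMSC5, 5.87 in mMSC8 and 6.14 in HL1cm5, and listed at 0 in the other 18 single cells. The population controls held 2.58 FPKM (mMSC-PC) and 3.78 (HL1cm-PC). It was above 0 in 12.5% of mMSCs (exact 95% interval 1.55% to 38.3%) and 20% of HL1cm (0.505% to 71.6%). The intervals overlap and cover counting error only, and no test was made.

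The make-up of the S100 transcripts differed accordingly. Summed over the 17 S100 genes measured, FPKM was 5028 to 21484 in mMSCs and 184 to 671 in HL1cm. As a share of the FPKM of all genes of 200 bases or more, the sum was 0.897% to 3.2% in mMSCs with a median of 1.52%, and 0.0386% to 0.107% in HL1cm with a median of 0.0639%. In each mMSC, S100a6 and S100a11 together made up 81.4% to 90.2% of the sum, and 89.9% in mMSC-PC. S100a10 followed with a median of 5.87%, then S100a4 with 4.77% and S100a1 with 1.04%. In HL1cm, S100a1 alone made up 56.5% to 91.8% and S100a13 8.2% to 40.1%. S100a6 reached at most 5.02% in a single HL1cm and 7.63% in HL1cm-PC.

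**Figure D3:**
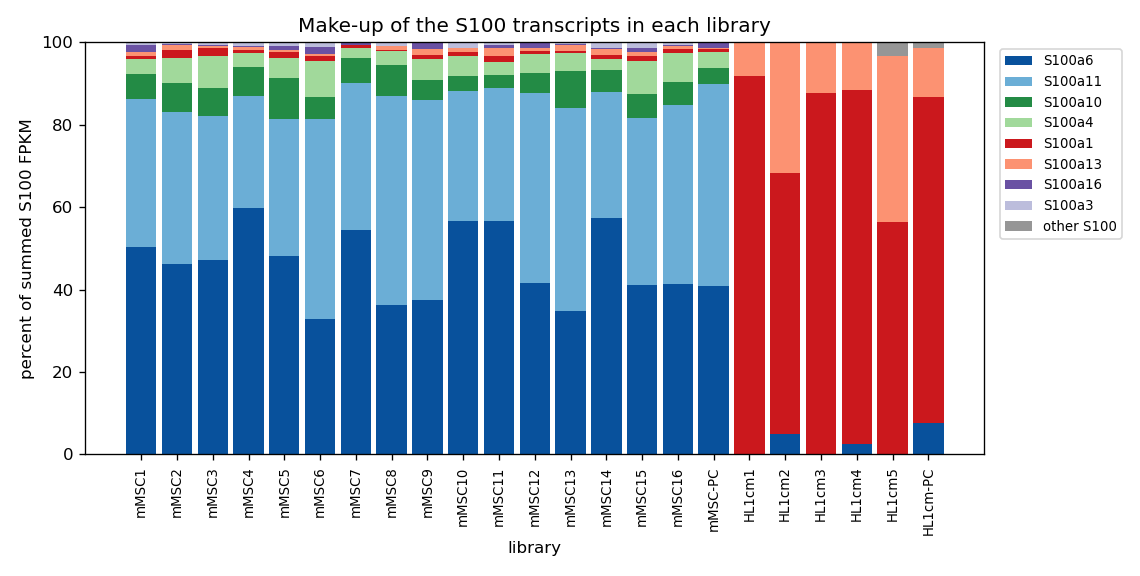
Share of each S100 gene in the summed S100 FPKM of each of the 23 libraries, in percent. The mMSC libraries are mostly S100a6 and S100a11 (dark and light blue), and the HL1cm libraries mostly S100a1 and S100a13 (dark and light red); the grey in HL1cm5 and HL1cm-PC is S100b.

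The population controls were compared in the same way. Of the members, 5 were at least 2-fold higher in mMSC-PC than in HL1cm-PC, beside 20.5% of 11509 genes with at least 1 FPKM in either control, and S100a1 was the 1 that was at least 2-fold lower, beside 39.0% of these genes. These were the same members as in the single cells. Set against its own cells, mMSC-PC was lower than most for several members: 15 of 16 mMSCs were above it for S100a10 and S100a13, 14 for S100a1, 13 for S100a6 and 11 for S100a4. S100a11 was nearly level, with 9 of 16 above, and 5 of 16 were above for S100a16. The mean of the 16 mMSCs was 3.54 times mMSC-PC for S100a13, 2.88 times for S100a1 and 1.07 times for S100a11. The control is an unlike library: mMSC-PC listed 9625 genes with at least 1 FPKM, against 5178 to 7241 in the mMSCs. Its Gapdh was at 551 FPKM, against 157 to 319. The part of this in the S100 values was not tested. The same counts over all genes were not computed, so they are not a trait of the S100 genes. For S100a1 in HL1cm the mean of the 5 cells was 1.25 times HL1cm-PC.

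Among the mMSCs, each of the 4 most abundant members spanned 4.75-fold (S100a11) to 5.07-fold (S100a4) from the lowest to the highest cell. The SD of log2 FPKM between the 16 mMSCs was 0.54 for S100a10, 0.58 for S100a6, 0.58 for S100a11 and 0.79 for S100a4. S100a13 and S100a1 were more uneven, with 0.94 and 0.95, and S100a16 stood at 2.01 with mMSC10 at 0. The median SD over the 8 members was 0.86, beside 1.38 over 10867 genes that reached 1 FPKM in 2 or more mMSCs. That order depended on the genes of low level: with values under 10 FPKM set to 10, the medians were 0.69 for the members and 0.48 for all genes. Set beside the 895 genes with a median of 100 FPKM or more, whose median SD was 0.67, the 5 members at that level had a median of 0.58, with S100a4 and S100a1 above 0.67 and the other 3 below it.

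Individual mMSCs differed in which S100 genes were high. mMSC9 was highest for S100a4, S100a10, S100a11, S100a13 and S100a16 and second highest for S100a1 and S100a6. mMSC9 was also the library with the fewest genes detected and the highest 5th percentile of short transcripts, 31.6 FPKM against 1.44 to 20.5 in the other mMSCs. Its part in these values was not tested. mMSC13 was lowest for S100a1 and S100a6 and among the 3 lowest for 5 of the 7 members above 0 in most mMSCs. mMSC11 was lowest for S100a4, S100a10 and S100a11, yet second highest for S100a13 at 138 FPKM. mMSC7 was highest for S100a6 and second for S100a10 and S100a11, while its S100a13 was the lowest of all.

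Over the 16 mMSCs, S100a4 and S100a11 varied together most closely (Pearson r = 0.73, Spearman rho = 0.74 of log2 FPKM), followed by S100a1 with S100a6 (r = 0.70, rho = 0.59) and S100a1 with S100a4 (r = 0.67, rho = 0.68). Without mMSC9 and mMSC15 these r values were 0.62, 0.66 and 0.61. S100a10 and S100a11, which are neighbours on the chromosome, had r = 0.64, or 0.49 without these 2 cells. S100a1 and S100a13, whose promoter windows overlap, had r = 0.23, or 0.02 without them. Of the 21 pairs among the 7 members, 20 (95.2%) had a positive r and the median was 0.35, beside 50.6% and 0.00 over all pairs of genes that reached 1 FPKM in 8 or more mMSCs. Leaving out mMSC9 and mMSC15 brought this to 15 of 21 pairs (71.4%) and a median of 0.17, beside 11487175 of 22960476 pairs and 0.00 over all genes in the same 14 cells. These correlations are descriptions. The points are cells of 1 cell type that share a preparation, and the number of genes detected moved with several members (r = -0.73 with S100a11, -0.62 with S100a13 and -0.57 with S100a4, and -0.33, -0.22 and -0.13 without mMSC9 and mMSC15).

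**Figure D4:**
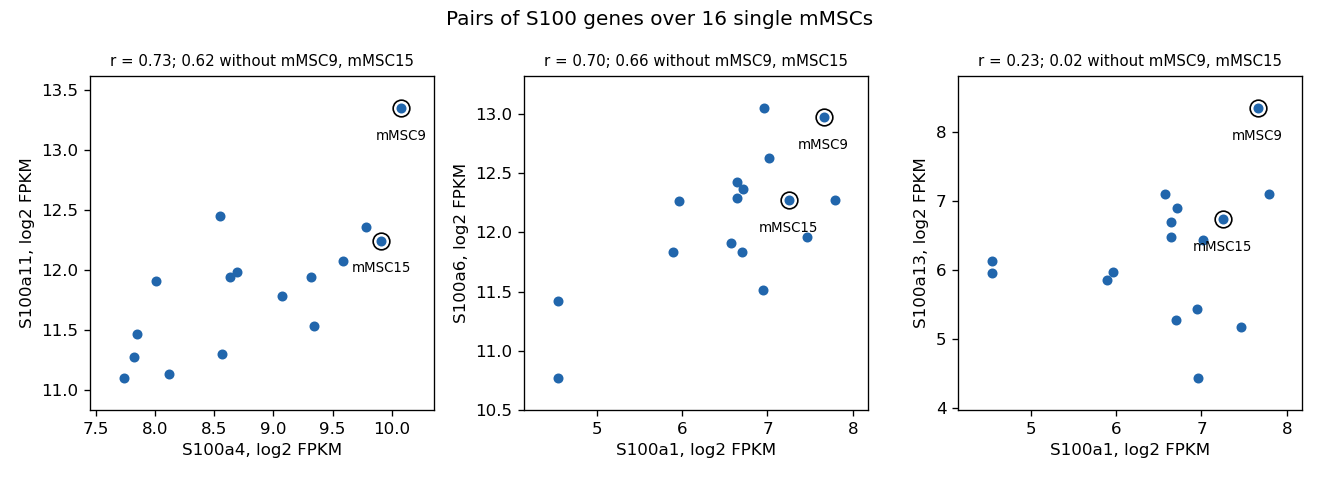
log2 FPKM of S100a11 against S100a4, S100a6 against S100a1 and S100a13 against S100a1, 1 point per mMSC; the circles mark mMSC9 and mMSC15, in which the fewest genes were detected. S100a4 rises with S100a11 and S100a1 with S100a6, whereas r of S100a1 and S100a13 was 0.23.

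The genes whose pattern over the mMSCs was most like that of a member were read from 6776 genes. Each was picked for a high r in this search over 16 cells, so the values are raised by the choice. No value without mMSC9 and mMSC15 was computed. Spearman rho is given after each r. For S100a11 these genes were Lgals1 (r = 0.86, rho = 0.73), which codes for galectin 1, Atp6v0e (0.85, 0.70) and Emp3 (0.83, 0.66). Their medians in mMSCs were 2929, 519 and 521 FPKM. Unlike S100a11, all 3 were present in HL1cm, up to 998, 687 and 265 FPKM. For S100a4 the genes were Ddx54 (0.89, 0.92), Cbr2 (0.85, 0.91) and the tetraspanin gene Cd9 (0.76, 0.75). Ddx54 was low, at a median of 8.88 FPKM in mMSCs. Cd9 was at a median of 596 FPKM in mMSCs and at 0 in all HL1cm libraries. S100a10 was most like Ppp1r12a (0.86, 0.76), a myosin phosphatase subunit, and the matrix protein gene Ecm1 (0.82, 0.61). S100a1 was most like Axl (0.89, 0.72), a receptor tyrosine kinase, and Scd1 (0.84, 0.59), a fatty acid desaturase. S100a6 was most like Xpnpep1 (0.82, 0.70), S100a13 like Pdxk (0.77, 0.77) and S100a16 like Dcaf7 (0.80, 0.86). Pdxk and Dcaf7 were low in mMSCs, at medians of 2.08 and 5.55 FPKM.

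Levels of the members were also set beside the mean log2 level of 12 G2/M genes, which mark cells close to division. S100a4 is given first and is the member that differed most in proportion, so its difference may be raised by the choice. The G2/M level left its widest gap between 3.24 and 4.81, so no r over all cells is given. Another gap, between 1.57 and 3.11, was almost as wide, with mMSC6 (3.11) and mMSC5 (3.24) between these gaps. The gap meant below is that between 3.24 and 4.81. In the 5 mMSCs above the gap (mMSC1, mMSC4, mMSC8, mMSC11 and mMSC14) S100a4 was 213 to 396 FPKM with a median of 257, and in the other 11 it was 227 to 1078 with a median of 639. The ranges overlapped, since mMSC5, mMSC7 and mMSC13 were at 379, 374 and 227 FPKM. Below the gap, mMSC9 and mMSC15 were highest, at 1078 and 963 FPKM. They are the libraries with the fewest genes, and the part of this was not tested. No r is given within either range, since only 5 cells lay above the gap. Medians above and below the gap were 2827 and 4056 FPKM for S100a11, 561 and 676 for S100a10, 4929 and 4955 for S100a6, and 95 and 124 for S100a1. For S100a13 they were 89.5 and 70 FPKM, and for S100a16 31.2 and 63.1. mMSC5 and mMSC6, counted below the gap, were at 38.8 and 43.2 FPKM for S100a13 and at 82.8 and 145 for S100a16. Counting mMSC5 and mMSC6 above the gap would reverse the order of the medians of S100a13 and S100a16. It would also lower the upper median of S100a6. The ranges of all 7 members overlapped.

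Other genes of the S100 family were mostly listed at 0. Of 9 relatives measured, 6 (S100a2, S100a8, S100a9, S100a14, S100g and S100z) were listed at 0 in all 23 libraries. S100a8 and S100a9, the calprotectin pair of neutrophils and monocytes, were among them. S100a3 was the exception: it was above 0 in 15 of 16 mMSCs, from 17.4 FPKM in mMSC7 to 155 in mMSC15, and listed at 0 in mMSC12 and in all HL1cm libraries. mMSC-PC was also listed at 0 for S100a3, although 15 single cells were not. The S100a3 model in GENCODE M21 is 42.1 kb long, contains S100a2 and overlaps Gm42674, so its reads may not be its own. S100a5 was at 18.3 FPKM in mMSC10 alone, and S100a7a at 3.32 and 3.3 in mMSC2 and mMSC5. Of the 2 relatives that passed the filter, 1 was at least 2-fold higher in mMSCs (S100a3) and 0 were lower.

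Position along the cluster did not sort the genes by level. S100a14, S100a2 and S100a5, each at 0 or nearly so, alternated with members at medians of 39.1 to 4942 FPKM. Neighbours were found by matching GENCODE M21 symbols to the genes measured, so a gene under another name was passed over. Outside the family, Snapin, the matched gene nearest to S100a1, was at a median of 12.6 FPKM in mMSCs and 8.52 in HL1cm. Tchhl1 and Tdpoz2, the matched genes that flank S100a11 and S100a10, were listed at 0 in all libraries.

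**Figure D5:**
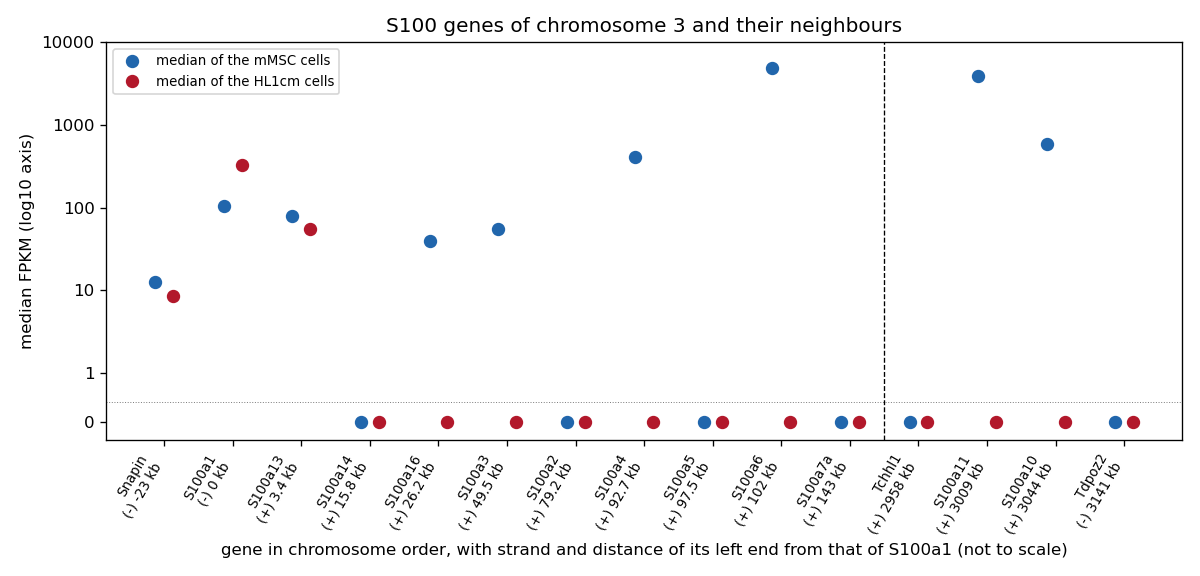
Median FPKM on a log10 axis in 16 mMSCs (blue) and 5 HL1cm (red) of S100 genes of chromosome 3 and neighbours matched by symbol. Genes are in chromosome order, with strand and distance in kb from S100a1. Values listed at 0 are below the dotted line and the dashed line parts the 2 groups. S100a1 and S100a13 are above 0 in both cell types, while S100a6, S100a4, S100a11 and S100a10 are above 0 in mMSCs only at the median.

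The genes for known targets of S100 proteins were taken from a list of 17, of which 15 passed the filter. At least 2-fold higher in mMSCs were 5 (Anxa1, Anxa2, Ahnak, Myh9 and Plat), and 4 were lower (Fgf1, Ryr2, Atp2a2 and Pln), beside 21.4% and 21.6% of all genes of the filter. Anxa2, the partner of S100A10, was at 637 to 1717 FPKM in mMSCs with a median of 1366 and at 0 to 89.8 in HL1cm, and the controls held 1587 and 72.1 FPKM, a 22-fold difference. Anxa2 was thus still measured in 4 of 5 HL1cm, where S100a10 was listed at 0. Anxa1, the partner of S100A11, was at 313 to 5074 FPKM in mMSCs and above 0 in 1 HL1cm, at 4.47. Myh9, the myosin bound by S100A4, was at 137 to 441 FPKM in mMSCs and 4.91 to 19.8 in HL1cm.

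The targets of S100A6 and S100A1 stood differently. Cacybp and Sugt1 were expressed in both cell types, with medians of 108 and 62.3 FPKM in mMSCs and 131 and 79.1 in HL1cm. Atp2a2, which codes for SERCA2, was at 5.76 to 81.2 FPKM in mMSCs and 232 to 480 in HL1cm. Ryr2, the cardiac ryanodine receptor, was at 6.12 to 22.5 FPKM in HL1cm and at 0.259 in 1 mMSC, being 0 in the others. Pln, which codes for the SERCA2 inhibitor phospholamban, was at 29.7 to 372 FPKM in HL1cm and above 0 in 2 mMSCs, up to 6.36. For S100A13, Fgf1 was above 0 in 3 of 5 HL1cm and in no mMSC, and Il1a in 4 of 16 mMSCs and in no HL1cm. Of the receptors for released S100 proteins, Ager was listed at 0 in all libraries and Tlr4 was above 0 in 4 mMSCs, up to 10.2 FPKM.

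Of 11 annexin genes 10 passed the filter, 7 were at least 2-fold higher in mMSCs, beside 21.4% of all genes, and 0 were lower, beside 21.6%, with a median difference of 1.82 on the log2 scale. For Anxa1, Anxa2 and Anxa3 every mMSC lay above every HL1cm, beside 2.19% of all genes. The other 3 that passed were under 2-fold: Anxa9 and Anxa11, which were above 0 in 4 and 3 mMSCs, and Anxa6, a further partner of S100 proteins, at a median of 82 FPKM in mMSCs and 96.1 in HL1cm.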

How the data were processed

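The authors mapped paired reads of 75 bases to mm10 (TopHat 2.0.12) and derived expression levels with default settings of Cufflinks 2.2.1. The FPKM values were used as deposited, for 23 libraries. Library cDNA was amplified from single cells without molecular identifiers. The 8 members, all of which are named, and the lists of relatives, targets, annexins, G2/M genes and markers were chosen with earlier results of these data known. Other genes are named from these lists, by the 3 highest Pearson r with a member among genes that reached 1 FPKM in 8 or more mMSCs, or as stated. Before taking log2, any value under 1 FPKM was raised to 1. Genes that reached 1 FPKM in 2 or more single cells were compared by differences of means and by overlap of ranges, with no test, since each cell type is 1 sample. Shares carry exact (Clopper-Pearson) 95% intervals. Levels of different genes were compared as FPKM. Gene positions and transcript lengths were those of GENCODE M21, which differs from the mm10 gene annotation that the authors used for the FPKM values. Promoter windows were those of RefSeq. Summary steps were tested on simulated data. Alternatives changed the log scale, limits, scaling, filter, fold and cells included. Tables were made with pandas 2.3.3 and numpy 2.4.6, intervals with scipy 1.17.1 and plots with matplotlib 3.10.9 under Python 3.11.15.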

Additional observations from a re-analysis of the deposited data

Results flagged for a closer look

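S100b in HL1cm5 was at 6.14 FPKM while the other 4 HL1cm were listed at 0. With 4 values tied at 0, any positive value in the remaining cell would be marked as far from the others, so the mark carries no weight of its own. The 5th percentile of the values above 0 for short transcripts was 4.99 FPKM in this library, and HL1cm-PC held 3.78 FPKM of S100b. Of the members, 4 were not at 0 in all 5 HL1cm and were examined in this way, and chance marks about 1 in 20 such groups where values are not tied.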

How the results depend on the processing

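With 5 HL1cm and 1 library per control, and no read counts, low values and listed zeros are the least certain. Of 130 values recomputed under alternatives, 126 kept their direction and their size within the spread or within 1.5 times, and none reversed. These values are of the members alone. Set beside all genes, the median SD of the members went from lower (0.86 against 1.38) to higher (0.69 against 0.48) with values under 10 FPKM set to 10. At a 4-fold limit the members lower in mMSCs went from 1 to 0, since S100a1 missed it. With FPKM divided by that of Gapdh, members lower in mMSC-PC went from 1 to 3, with S100a13 and S100b added. The same scaling took the members with every mMSC above every HL1cm from 4 to 5, with S100a16 added, beside 2.65% of all genes. The difference of S100a6 was 8.73 with values under 10 FPKM set to 10 and 12.27 from medians, against 10.72. That of S100a1 was -1.07 to -1.73 and that of S100a13 0.22 to 0.74. Leaving out each HL1cm in turn changed no count of members. Rescaling to the genes of 200 bases or more was chosen after seeing the data. No paired analysis was possible because the numbers of the cells only name them and no test was made.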
